A study of Mus musculus with 12 samples.

Results

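The tripartite motif (TRIM) family was followed by ATAC-seq in macrophages grown from mouse bone marrow. This assay cuts open chromatin with the Tn5 transposase, so the reads in a region measure how accessible its DNA is. All peaks whose assigned gene symbol begins with Trim and a number were taken, which gave 363 of 139999 peaks, assigned to 59 genes. The study grew macrophages from the marrow of male C57BL/6J mice aged 8 weeks, made diabetic by streptozotocin (42 to 45 mg/kg daily for 5 days) or left as controls. The first phase holds diabetic and healthy cells, with no collection time in the labels. The rest phase holds diabetic-trained and untrained cells cultured for 7 days in 5 mmol/L glucose and M-CSF. The second phase holds both kinds of cell after stimulation for 16 hours, with IFN-γ at 10 ng/mL and with LPS at 100 ng/mL. Each of these 6 groups has 2 libraries. The diabetic mice were above 16.9 mmol/L blood glucose and were hyperglycaemic for 6 weeks before the marrow was taken. All of the cells carry the same strain background, and the labels do not say whether 2 libraries of a group came from separate animals, so p-values measure only the spread between libraries. No header says which mean column belongs to the diabetic cells. The groups are therefore called A (first mean column) and B within each phase, and A of one phase need not be A of another.

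TRIM proteins share a RING finger, B-box and coiled-coil arrangement, and most are ubiquitin ligases whose C-terminal part chooses the target. Several are made in response to interferon and act against viruses or tune the sensing of foreign nucleic acid, among them the relatives of the retrovirus restriction factor TRIM5 of primates. Others act as chromatin cofactors, in striated muscle, in neurons or in red cell maturation. In macrophages the interferon-inducible members are those best known.

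The 59 genes were a part of the 69 Trim symbols that RefSeq lists for mouse. Trim30c, Trim30e-ps1, Trim34b, Trim35, Trim43a, Trim43b, Trim43c, Trim60, Trim61 and Trim75 had no peak assigned to them. Trim2 and Trim33 had the most peaks with 19 each, the median gene had 5, and 7 genes had 1. Of the 363 peaks, 66 (18.2%) lay within 1 kb of a start, in 47 genes, against 16.7% of all peaks. Distal intergenic peaks made up 34.7% of the family's peaks and 30.2% of all peaks, and intronic ones 29.8% and 36.7%. One Trim6 peak, at chr7:104212415-104212814, is listed at 0 for a group and was left out of the tests, so 362 peaks were tested.

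The sequences next to the starts of the chromosome 7 cluster are shown because the peaks over them carry the second-phase pattern described further on. The interferon-stimulated response element, to which interferon-activated factors bind, was searched on both strands as 2 copies of GAAA parted by any 2 bases, in the RefSeq windows of 300 bases around starts, 250 before and 50 after, on GRCm38.p6, the same assembly as the authors' mm10. It was found in 10 of the 67 windows of the family (14.9%), belonging to 9 genes, and in 3.44% of all 32851 windows. Outside the chromosome 7 cluster the only genes with it were Trim2, Trim21 and Trim26. Some of the cluster's windows are near copies, so their matches are not independent and the share does not describe the family as a whole. The AP-1 motif TGANTCA was also in 10 windows of the family (14.9%), against 7.81% of all windows. The NF-κB motif, GGGA and CC parted by any 4 bases, was in 10 windows too (14.9%), against 20.7% of all windows. The GAS motif TTCCNGGAA was in 2 windows (2.99%), against 1.15%, and the PU.1 motif GAGGAAGT in 5 (7.46%), against 3.2%. Both GAS windows belong to Trim15 and overlap each other, so they may hold the same site. In the stretches below, read 5′ to 3′ on the strand of the gene, capitals mark the interferon response motif, which here lies on the opposite strand. Positions count back from the base before the start, which is -1.
Trim12c, chr7:104353350-104353469, minus strand: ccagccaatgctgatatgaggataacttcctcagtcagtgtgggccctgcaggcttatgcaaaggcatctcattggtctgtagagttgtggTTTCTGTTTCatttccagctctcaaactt
Trim5, chr7:104288107-104288226, minus strand: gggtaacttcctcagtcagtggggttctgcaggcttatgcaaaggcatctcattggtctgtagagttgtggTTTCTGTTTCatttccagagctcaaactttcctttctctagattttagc
Trim30a, chr7:104465194-104465313, minus strand: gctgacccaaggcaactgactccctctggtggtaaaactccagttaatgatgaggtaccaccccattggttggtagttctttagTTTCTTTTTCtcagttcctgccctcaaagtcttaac
Trim30d, chr7:104507850-104507969, minus strand: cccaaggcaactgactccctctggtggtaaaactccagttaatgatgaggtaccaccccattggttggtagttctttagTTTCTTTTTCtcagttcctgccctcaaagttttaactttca
Each of these 4 stretches runs from -120 to -1, and the motif begins at -29 in Trim12c, -49 in Trim5, -36 in Trim30a and -41 in Trim30d. Only 3 bases of the Trim5 stretch lie in the peak at its start. Some windows of the cluster are near copies of each other: the Trim30a and Trim30d windows were identical at 276 of 295 aligned bases (93.6%), and those of Trim5 and Trim12a at 241 of 241. The sources used here do not give how reads that fit several copies were counted, so levels of single cluster members are uncertain where copies could share reads.

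A Trim30c stretch and a pair of start regions outside the cluster are shown beside them. The Trim30c stretch, from -250 to -131, lies whole in a peak that the authors' table assigns to Trim30a, and it held no match. That of Trim56, from -120 to -1, held none either, and that of Trim26, from -200 to -81, held a double match beginning at -160 and -154. A missing match says only that these letters are not in the window.
Trim30c, chr7:104400909-104401028, minus strand: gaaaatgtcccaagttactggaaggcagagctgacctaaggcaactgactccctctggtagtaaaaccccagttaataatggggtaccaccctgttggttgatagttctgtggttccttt
Trim56, chr5:137116208-137116327, minus strand: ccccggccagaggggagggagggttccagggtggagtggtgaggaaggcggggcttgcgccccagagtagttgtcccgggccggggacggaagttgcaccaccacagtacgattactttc
Trim26, chr17:36836946-36837065, plus strand: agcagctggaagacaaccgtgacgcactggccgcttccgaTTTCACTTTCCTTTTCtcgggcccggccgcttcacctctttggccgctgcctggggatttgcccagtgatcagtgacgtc

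Whole reads were recovered for each library from the deposited group means, and libraries are numbered 1 and 2 within a group by the worth of a read, not by the labels. Reads in peaks ranged from 3827344 to 18602644 per library, and 0.265% to 0.307% of them lay in Trim peaks. A level below is the log2 of the quantile-scaled reads of a peak plus 1, scaled over all 12 libraries. In the first phase, the libraries of A varied around each other barely beyond sampling noise, and they were counted as 1 sample between phases. Libraries A1 and B1 of the second phase stood apart from A2 and B2. Over peaks outside the family, second-phase A1 correlated best with rest-phase A1 (r = 0.977, against 0.823 with its own group mate), and second-phase B1 also with rest-phase A1 (r = 0.895, against 0.737). Second-phase A2 and B2 correlated best with each other (r = 0.935). These values are descriptions over shared peaks. By these correlations A1 and B1 were nearer to a rest-phase library than to their group mates, which is at odds with their label of stimulated cells. Library B1 also had the fewest reads in peaks of all 12 (3827344), and the part of depth in its correlations was not tested. Whether labels or libraries were exchanged was not tested either, so "second phase" below means the label. Folds and counts against the rest phase are given with and without A1 and B1, and levels for each library. For A over B in the second phase no test is left without them, with 1 library on each side. The macrophage label was set beside 10 marker genes, all of which had peaks. Their summed scaled reads ranged from 10708 to 12995 in the second phase, 9588 to 13050 in the rest phase and 7328 to 9992 in the first phase. Of their 102 peaks, 32 were higher and 21 lower in the rest than in the first phase (limma adjusted p under 0.05). The shares of all peaks were 19.8% and 18.7%.

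**Figure D1:**
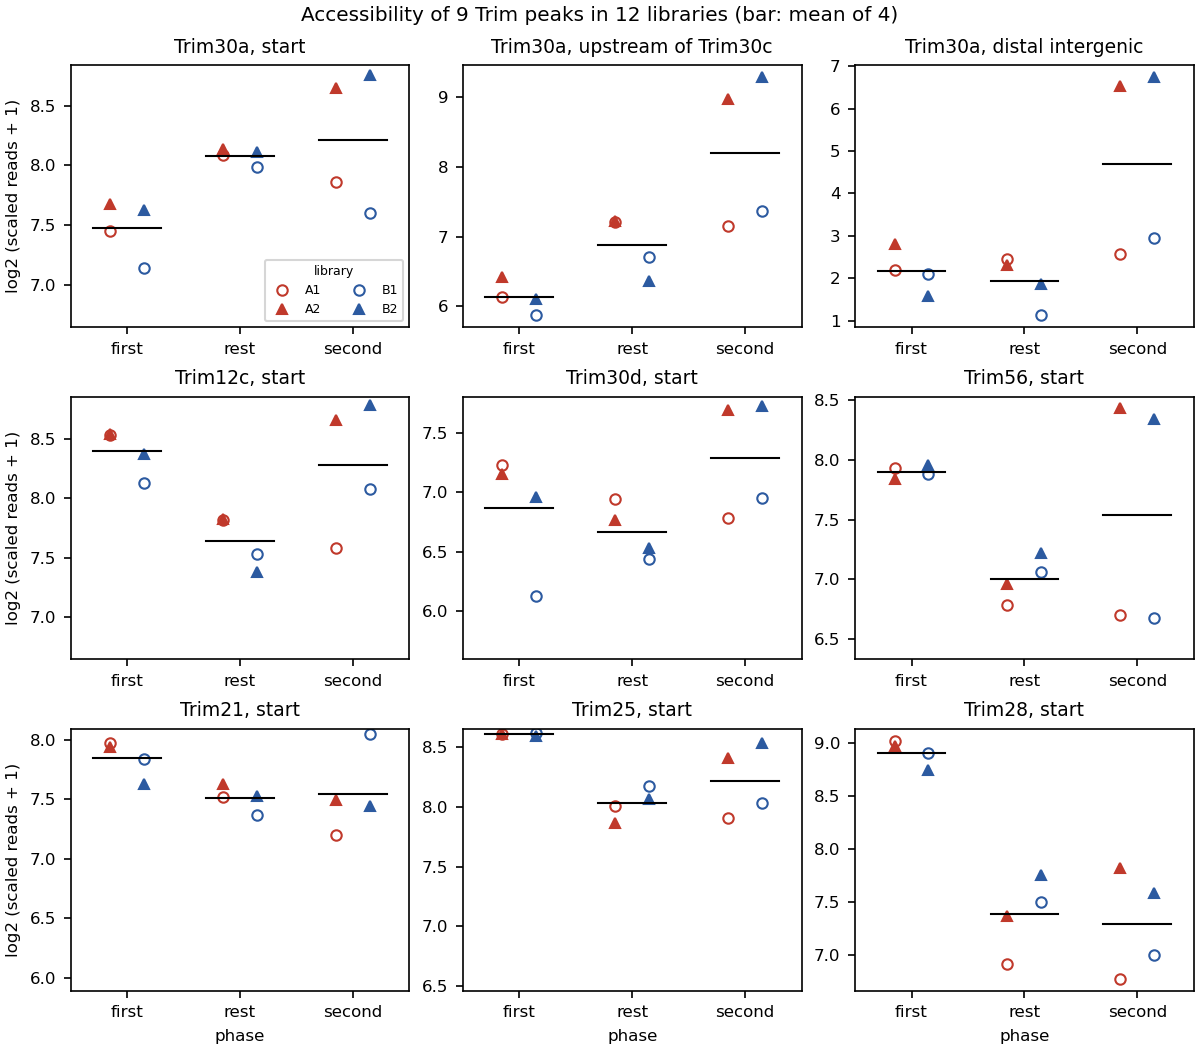
Log2 level (quantile-scaled reads + 1) of 9 Trim peaks in the 12 libraries by phase, with group A in red left of group B in blue, library 1 as open circles, library 2 as triangles and the mean of the 4 libraries as a bar. In the 3 Trim30a panels and for Trim12c, Trim30d and Trim56, second-phase A2 and B2 lie above all 4 rest-phase libraries, which is not so in the Trim21 panel.

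The median Trim peak had a log2 level of 4.94 in the first, 4.89 in the rest and 4.82 in the second phase, against 4.72, 4.72 and 4.71 for all peaks. The most open promoter peaks in the rest phase were those of Trim45 (10.19 ± 0.14, SD, n = 4 libraries), Trim41 (9.12 ± 0.35), Trim24 (9.07 ± 0.22), Trim47 (9.02 ± 0.16) and Trim26 (8.78 ± 0.06). Trim24 is a bromodomain chromatin cofactor, and TRIM26 is known in human cells as a regulator of interferon production. Among these 5, Trim45 stood above the others in every rest-phase library, while Trim41, Trim24 and Trim47 did not differ beyond their spread. The least open promoter peaks were those of the erythroid gene Trim10 (2.80 ± 0.66), of Trim50 (3.82 ± 0.42), Trim15 (3.90 ± 0.70) and Trim5 (4.19 ± 0.56), and of Trim58 (4.43 ± 0.52), which serves the loss of the nucleus in maturing red cells. All 5 overlapped within their spread with their neighbours in this order.

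The second phase asks what IFN-γ and LPS did to these peaks. In the second over the rest phase, none of the 362 Trim peaks passed limma's test at an adjusted p under 0.05, as did 0.0% of all 139557 peaks tested. The smallest adjusted p of the family was 0.422, and 54 of the 362 peaks had an unadjusted p under 0.05. The second-phase libraries did not move together, and their values are therefore given singly. With summed reads per gene, none of the 59 genes passed either, with 7 at an unadjusted p under 0.05.

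The chromosome 7 cluster holds Trim6, Trim34a, Trim5, Trim12a, Trim12c, Trim30b, Trim30a and Trim30d between chr7:104206197 and chr7:104513821. Its members are the mouse relatives of TRIM5, and Trim30a is an interferon-induced gene whose product restrains Toll-like receptor signalling. In 19 of the 31 tested cluster peaks, second-phase A2 and B2 both lay above all 4 rest-phase libraries. The same held for 74 of the 362 Trim peaks (20.4%) and for 17.8% of all peaks. Both libraries lay below all 4 rest-phase libraries in 1 cluster peak, in 70 Trim peaks (19.3%) and in 22.9% of all peaks. Second-phase A1 and B1 both lay above the rest-phase libraries in 1 of the 31 cluster peaks, in 20 Trim peaks (5.52%) and in 6.66% of all peaks. Taken singly, B1 lay above them in 11 cluster peaks, in 95 Trim peaks (26.2%) and in 26.1% of all peaks. It lay below them in 12 cluster peaks, in 100 Trim peaks (27.6%) and in 26.7% of all peaks. For A1 the shares of all peaks were 16.0% above and 19.1% below, with 2 cluster peaks above and 8 below. These counts describe the libraries, with no test.

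The largest difference inside the cluster was in a distal intergenic peak assigned to Trim30a (chr7:104404363-104404762). Its levels were 2.58, 6.54, 2.95 and 6.74 in second-phase A1, A2, B1 and B2, against 2.46, 2.32, 1.12 and 1.87 in the rest phase. Every second-phase library lay above the rest phase, A1 by little and A2 and B2 by far. The fitted log2 fold over all 4 libraries was 2.84 (SE 0.91, limma adjusted p = 0.422), and 4.88 (SE 0.49) without A1 and B1. The peak upstream of Trim30c, also assigned to Trim30a (chr7:104400895-104401294), had levels of 7.15, 8.97, 7.37 and 9.28 in the second phase, against 7.21, 7.22, 6.71 and 6.37 in the rest phase. Here A2 and B2 were high, B1 lay just above the rest phase and A1 inside it. The log2 fold was 1.16 (SE 0.38, limma adjusted p = 0.422), and 2.01 (SE 0.26) without A1 and B1. The start of Trim30a itself (chr7:104465117-104465516) differed less, with 7.86, 8.65, 7.60 and 8.76 in the second phase, against 8.09, 8.14, 7.99 and 8.11 in the rest phase. A1 and B1 were below the rest phase there and A2 and B2 above it, so the fitted log2 fold was 0.10 (SE 0.21, limma adjusted p = 0.853), and 0.52 (SE 0.15) without A1 and B1.

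The other starts of the cluster fell into those with this pattern and those without. At the Trim12c start (chr7:104353251-104353650) the levels were 7.58, 8.66, 8.08 and 8.78 in the second phase, against 7.82, 7.83, 7.53 and 7.38 in the rest phase. At the Trim30d start (chr7:104507725-104508124) they were 6.78, 7.69, 6.95 and 7.72 in the second phase, against 6.94, 6.77, 6.44 and 6.53 in the rest phase. In both, B1 also lay above all rest-phase libraries and A1 did not. The Trim5 start had 4.44, 5.23, 3.22 and 5.37 in the second phase, against 4.54, 4.42, 3.36 and 4.45 in the rest phase, with A2 and B2 high. The nearest Trim30b start peak had 7.95, 8.66, 8.36 and 8.59 in the second phase, against 8.08, 8.26, 7.80 and 7.85 in the rest phase, so that A1 alone stayed within the rest-phase range. By contrast the Trim34a start overlapped between phases (6.94, 7.52, 6.62 and 7.69, against 7.13, 7.52, 7.43 and 7.58), although its window holds the motif at +11. The Trim6 start had 5.35, 4.51, 4.93 and 4.20 in the second phase, against 5.31, 5.51, 5.59 and 5.57 in the rest phase, with A2 and B2 the lowest.

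**Figure D2:**
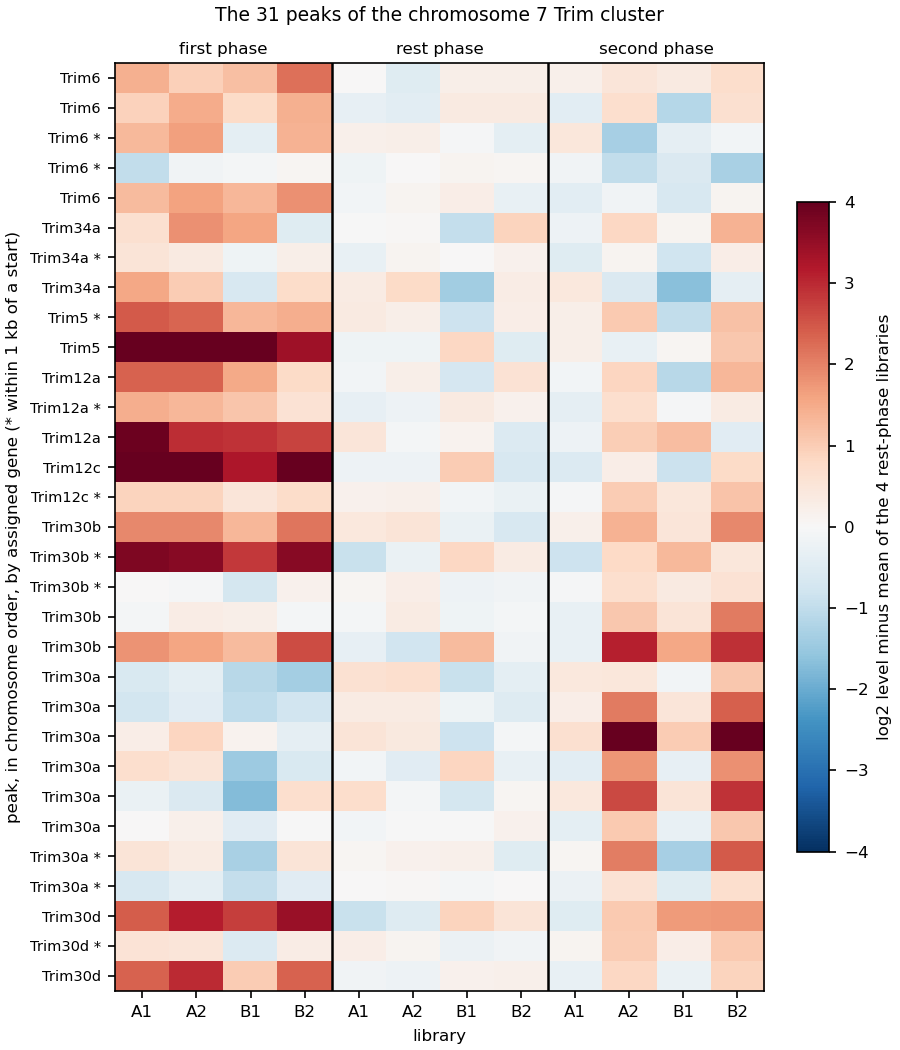
Log2 level of the 31 tested peaks of the chromosome 7 cluster (rows, in chromosome order, by assigned gene) in the 12 libraries (columns, by phase), as the difference from the mean of the 4 rest-phase libraries; colours end at 4 in either direction. Red in second-phase A2 and B2 is densest in the Trim30b and Trim30a rows, second-phase A1 is pale throughout, and the first-phase columns are red around Trim5, Trim12a, Trim12c, Trim30b and Trim30d.

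Among the members that act in antiviral signalling (Trim14, Trim21, Trim25, Trim26, Trim38, Trim56, Trim65 and Trim69), second-phase A2 and B2 both lay above the rest phase in 8 of 34 peaks and below it in 6. The shares of all peaks were 17.8% above and 22.9% below, so these counts are near the background. Trim56, which takes part in signalling from cytosolic DNA and RNA, had a start peak (chr5:137116015-137116414) at 6.70, 8.44, 6.67 and 8.34 in the second phase, against 6.78, 6.96, 7.06 and 7.22 in the rest phase. Its A2 and B2 stood well above and its A1 and B1 just below the rest phase. Trim25, the ubiquitin ligase of the RNA sensor RIG-I, had 7.91, 8.41, 8.03 and 8.54 at its start, against 8.01, 7.87, 8.18 and 8.07, with A2 and B2 high again, by less. The start of Trim21, a cytosolic antibody receptor, had 7.20, 7.49, 8.05 and 7.44, against 7.52, 7.63, 7.37 and 7.53, and only B1 was high. Trim26, despite its double motif, stayed between 8.59 and 8.73 in the second phase, against 8.70 to 8.84 in the rest phase. Trim14, an adaptor at mitochondria, had 5.20, 5.30, 4.33 and 5.01, against 5.68, 5.31, 5.34 and 5.35, with every second-phase library below every rest-phase one.

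Single peaks of members without an antiviral role had the A2 and B2 pattern too. Both libraries lay above the rest phase in 7 of 52 chromatin cofactor and 6 of 23 muscle peaks. In genes outside the role groups they did so in 20 of 121, against 17.8% of all peaks. Both lay below it in 6, 3 and 30 of these peaks, against 22.9% of all peaks. The peaks that follow are therefore single cases, not a trait of their groups. A distal peak of the chromatin cofactor Trim24 (chr6:37821550-37821949) had levels of 2.58, 5.13, 2.95 and 5.47 in the second phase, against 2.77, 1.50, 1.12 and 2.14 in the rest phase. A Trim55 intron peak (chr3:19620116-19620515), in a gene of the striated muscle sarcomere, had 2.70, 5.60, 3.45 and 5.47, against 3.00, 2.17, 2.22 and 2.70. In Trim37, which acts at centrosomes, a peak within 1 kb of a start (chr11:87189414-87189813) had 6.10, 7.71, 5.51 and 7.89, against 6.03, 5.79, 5.14 and 5.02. A2 and B2 were the highest second-phase libraries in all 3, and Trim37 was named after its values were seen. In the opposite direction, the Trim47 start had 9.05, 7.46, 8.96 and 7.78 in the second phase, against 9.16, 8.92, 8.85 and 9.17 in the rest phase. A Trim63 peak, next to the muscle ubiquitin ligase MuRF1, had 7.54, 6.43, 7.54 and 6.07, against 7.48, 7.69, 7.67 and 8.01. In both peaks A2 and B2 were low, while A1 and B1 stayed near the rest phase. The start of Trim13, a ubiquitin ligase of the endoplasmic reticulum, differed from all of these, with 5.92, 5.96, 6.22 and 5.70, against 6.51, 6.73, 6.74 and 6.55. All 4 second-phase libraries were low there, and the log2 fold was -0.69 (SE 0.23, limma adjusted p = 0.422), and -0.82 (SE 0.24) without A1 and B1.

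Of the 20 genes that signal with the family, the lead peaks of 11 had second-phase A2 and B2 both above all 4 rest-phase libraries, that of 1, Sting1, had both below them, and 8 had neither. Over all peaks, not only those at starts, 17.8% had both above and 22.9% both below. At the start of Isg15, the ubiquitin-like modifier induced by interferon, the levels were 5.42, 7.84, 4.65 and 8.21 in second-phase A1, A2, B1 and B2, against 5.58, 5.79, 5.67 and 5.53 in the rest phase. Zbp1, a sensor of Z-form nucleic acid, had 5.94, 8.36, 4.93 and 8.48, against 6.03, 5.28, 5.73 and 5.79. In both genes A2 and B2 were high, and A1 and B1 were not. Mavs, the mitochondrial adaptor of RNA sensing, had 8.67, 8.42, 9.13 and 8.42, against 8.70, 8.61, 8.75 and 8.37, and its A2 and B2 lay within the rest-phase range. Sting1 had 5.61, 4.98, 4.80 and 4.78, against 5.48, 6.03, 5.59 and 5.94, with A2, B1 and B2 low. Without A1 and B1, 33 Trim peaks were higher and 23 lower in the second phase at an adjusted p under 0.05 (limma), against 9.14% and 6.11% of all peaks, and 12 higher and 1 lower were in the cluster. That setting was chosen after seeing the data and keeps the libraries least like the rest phase, so its calls and folds do not stand as a test of stimulation. The Trim30a peaks at the start, upstream of Trim30c and at the distal site, and the Trim13 start, passed at an adjusted p of 0.0351, 0.000844, 0.000307 and 0.0429 there (limma).

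The comparison of the rest with the first phase sets cells after the 7 days of culture against those of the first phase. Of the 362 Trim peaks, 71 were higher and 89 lower in the rest phase at an adjusted p under 0.05 (limma, n = 4 against 3), which is 160 in all. Of all peaks 38.5% were called, 19.8% higher and 18.7% lower, so the family's count is near the background. With total reads in peaks as the scaling, which shifted the median of all peaks (0.31, against 0.02 with quantile scaling, as a log2 fold), 90 Trim peaks were higher and 65 lower, against 26.6% and 13.2% of all peaks. Of the 66 peaks within 1 kb of a start, 12 were higher and 27 lower, and of the 296 elsewhere 59 were higher and 62 lower. All promoter peaks had 12.5% higher and 31.9% lower, and all other peaks 21.3% and 16.1%. With summed reads per gene, 16 genes rose and 20 fell of 59, against 25.5% and 26.5% of all genes.

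Markers of other cells moved in the same comparison, to differing degrees. Summed scaled reads of 9 neutrophil genes ranged from 1311 to 1739 in the rest phase and 5618 to 10331 in the first phase, those of 6 B cell genes from 1270 to 1375 and 1881 to 5628, and those of 5 erythroid genes from 863 to 942 and 1454 to 2527. Of their peaks, 40 of 55 neutrophil, 32 of 56 B cell and 14 of 29 erythroid peaks fell, and 1, 4 and 3 rose. Over all peaks 18.7% fell and 19.8% rose. T and NK cell genes summed to 357 to 495 in the rest and 541 to 778 in the first phase. Of their 9 peaks 3 fell and 0 rose. Dendritic and mast cell genes had 1891 to 2188 and 2378 to 2560, with 16 of 64 peaks lower and 11 higher. Stromal genes overlapped between phases (1020 to 1269 and 1174 to 1265), with 7 of 33 peaks lower and 5 higher. The part of these cells in the results on this comparison was not tested. Fewer cells of a type and less open chromatin per cell cannot be told apart in such bulk libraries.

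The 2 red cell genes had the lowest median log2 fold of the role groups (-2.19). All 5 of their peaks were lower in the rest phase, against 18.7% of all peaks, though the erythroid markers moved with them. The Trim10 promoter (chr17:36869258-36869657) had levels of 2.14, 2.32, 3.36 and 3.38 in the rest phase, against 7.63, 7.45, 7.99 and 6.41 in the first phase. The groups lay far apart, and the log2 fold was -4.52 (SE 0.45, limma adjusted p = 4.85e-06). The Trim10 window was the only one of the family with the letters AGATAAG, as bound by the GATA factors of red cells, on either strand. That is 1 of 67 windows (1.49%), below the 3.04% of all windows that held them, and the Trim58 window did not. In Trim10 the letters are in capitals, on the opposite strand, in the stretch from -250 to -131 that lies in the promoter peak. Whether they bear on its fall was not tested.
Trim10, chr17:36869324-36869443, plus strand: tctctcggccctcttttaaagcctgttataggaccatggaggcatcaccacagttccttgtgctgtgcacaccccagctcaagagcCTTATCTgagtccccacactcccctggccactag
The Trim58 peak 1 to 2 kb from its start (chr11:58641625-58642024) had 2.70, 2.77, 2.82 and 2.39 in the rest phase, against 7.15, 7.33, 7.86 and 6.33 in the first phase (log2 fold -4.46, SE 0.38, limma adjusted p = 1.73e-06). Its promoter peak fell by 2.19 on the log2 scale (SE 0.35).

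In the chromosome 7 cluster, 15 of 31 peaks fell and 2 rose, against 18.7% and 19.8% of all peaks, and 14 did not pass. The cluster's median log2 fold was -0.77, against 0.02 over all peaks. The peaks that fell furthest lay around Trim5, Trim12a, Trim12c, Trim30b and Trim30d. The Trim12c peak 4840 bases inside the gene (chr7:104348099-104348498) had 2.32, 2.32, 3.53 and 1.87 in the rest phase, against 6.77, 6.84, 5.73 and 7.21 in the first phase. The Trim5 peak at chr7:104291583-104291982 had 2.70, 2.70, 3.70 and 2.39, against 7.23, 7.07, 6.96 and 6.25. Neither overlapped between phases, and the log2 folds were -4.04 (SE 0.46) for Trim12c and -3.88 (SE 0.39) for Trim5. Folds of -3.35 for a Trim30b promoter peak, -3.00 for a Trim12a peak and -2.99 for a Trim30d peak followed. The only member to move the other way was Trim30a, where the start peak rose by 0.69 (SE 0.19, limma adjusted p = 0.0105) and the peak upstream of Trim30c by 0.80 (SE 0.27, limma adjusted p = 0.0312). The Trim30a start had 8.09, 8.14, 7.99 and 8.11 in the rest phase, against 7.45, 7.68, 7.14 and 7.63 in the first phase, with no overlap. By summed reads Trim30a rose by 0.80 (SE 0.19), while Trim5, Trim6, Trim12a and Trim12c fell and Trim30b, Trim30d and Trim34a did not pass.

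Of the antiviral signalling members, 8 of 34 peaks rose and 5 fell, against 19.8% and 18.7% of all peaks, and 21 did not pass. By summed reads Trim38 and Trim69 rose, by 0.83 (SE 0.20) and 0.78 (SE 0.24), and Trim14, Trim26 and Trim65 fell, by 0.74, 0.40 and 0.58. The start peaks of Trim56 and Trim25 fell by 0.96 (SE 0.20) and 0.63 (SE 0.16) on the log2 scale. At the Trim25 start the rest phase had 8.01, 7.87, 8.18 and 8.07, against 8.61, 8.61, 8.62 and 8.60 in the first phase, a narrow spread in the first phase and no overlap.

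The chromatin cofactors had 11 of 52 peaks that rose and 13 that fell, against 19.8% and 18.7% of all peaks, and 28 did not pass. All 4 of the called promoter peaks among their 6 were lower, against 31.9% lower and 12.5% higher of all promoter peaks. Trim28, the corepressor that KRAB zinc finger proteins recruit, had a promoter at 6.91, 7.36, 7.50 and 7.75 in the rest phase, against 9.02, 8.97, 8.90 and 8.74 in the first phase. It fell by 1.63 on the log2 scale (SE 0.21, limma adjusted p = 4.17e-05), without overlap. The Trim33 promoter, of a cofactor in TGF-β signalling, fell by 1.44 (SE 0.21) and that of Trim27 by 0.70 (SE 0.16), while that of Trim24 had a fold of -0.36 and did not pass (adjusted p = 0.103 by limma). By summed reads Trim66, which is best known from the testis, rose by 0.62 (SE 0.22). Distal peaks of the same genes went both ways: in Trim33 one rose by 2.13 (SE 0.60), and another fell, with 2.70, 2.70, 4.51 and 3.90 in the rest phase, against 7.10, 6.90, 6.22 and 6.86 in the first phase (limma adjusted p = 6.77e-05).

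Among the NHL-repeat members 11 of 43 peaks rose and 5 fell, against 19.8% and 18.7% of all peaks, and 27 did not pass. The median log2 fold of the 43 was 0.42. By summed reads Trim2, Trim71 and Trim32 rose by 0.73 (SE 0.13), 0.89 (SE 0.17) and 0.45 (SE 0.15). A peak assigned to Trim71 (Lin41), a gene best known from stem cells, is annotated as intronic (chr9:114592322-114592721). It lies upstream of the RefSeq start window of Trim71 (chr9:114564320-114564619, minus strand), so the intron is not one of that transcript. Its levels were 7.12, 7.10, 6.69 and 6.95 in the rest phase, against 3.55, 3.26, 3.96 and 3.58 in the first phase. That peak rose by 3.27 (SE 0.28, limma adjusted p = 1.80e-06) and stayed between 6.97 and 7.51 in the second phase. A Trim2 peak 816 bases from a start, one of the larger rises of the family, rose by 2.12 (SE 0.32). The lead promoters of Trim2 and Trim3, both neuronal genes, went apart: Trim2 rose by 0.83 (SE 0.26) and Trim3 fell by 0.88 (SE 0.26).

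The muscle members had 5 of 23 peaks that rose and 6 that fell, against 19.8% and 18.7% of all peaks, and 12 did not pass. None of the 23 lay within 1 kb of a start. Trim55 (MuRF2) held the largest fall of the family: its intron peak at chr3:19650524-19650923 had 2.32, 1.94, 2.22 and 1.87 in the rest phase, against 7.05, 7.09, 7.71 and 6.16 in the first phase (log2 fold -4.89, SE 0.40). Another Trim55 intron peak, at chr3:19663174-19663573, rose by 2.69 (SE 0.32), with 6.28, 6.21, 7.12 and 6.80 in the rest phase, against 4.07, 3.58, 4.20 and 3.58 in the first phase. The 2 intron peaks thus moved oppositely, each without overlap, and their sum left Trim55 with a log2 fold of -0.04 per gene. Trim72 (MG53), of membrane repair in muscle, had a distal peak that fell by 3.26 (SE 0.36) and one upstream that rose by 1.47 (SE 0.34).

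The largest rises were in genes of other roles. The Trim47 promoter (chr11:116110569-116110968) had 9.16, 8.92, 8.85 and 9.17 in the rest phase, against 4.71, 5.08, 5.48 and 5.63 in the first phase. It rose by 3.84 (SE 0.22, limma adjusted p = 1.79e-07), the smallest adjusted p of the family, and by summed reads Trim47 rose the most of the 59 genes, by 2.16 (SE 0.17). A distal peak of Trim67, a neuronal gene, had 7.53, 7.49, 7.63 and 7.41 in the rest phase, against 4.30, 3.85, 2.92 and 3.42 in the first phase, and rose by 4.03 (SE 0.30). Peaks of Trim45 and Trim29 rose by 3.76 (SE 0.26) and 3.60 (SE 0.27), and ones of Trim52, Trim32, Trim41 and Trim8 by 2.80, 2.70, 2.54 and 2.04. Of the 2 members anchored in membranes, Trim59 and Trim13, 1 peak rose, 5 fell and 6 did not pass, and a distal Trim59 peak fell by 4.00 (SE 0.41). The start peaks of both genes fell too, by 1.33 (SE 0.22) for Trim59 and 0.87 (SE 0.23) for Trim13. The neuronal and cytoskeletal members Trim9, Trim36, Trim46 and Trim67 had 8 peaks that rose, 5 that fell and 28 that did not pass, and Trim36 rose by 1.02 (SE 0.16) by summed reads. By summed reads Trim16 and Trim31 rose by 1.48 (SE 0.16) and 1.27 (SE 0.23), and Trim39, Trim23 and Trim11 fell by 1.31, 1.16 and 1.06. The 22 genes outside the role groups had 25 of 121 peaks that rose and 30 that fell, against 19.8% and 18.7% of all peaks, and 66 did not pass. The counts given above for the 12 membrane-anchored and the 41 neuronal and cytoskeletal peaks stand beside the same shares.

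**Figure D3:**
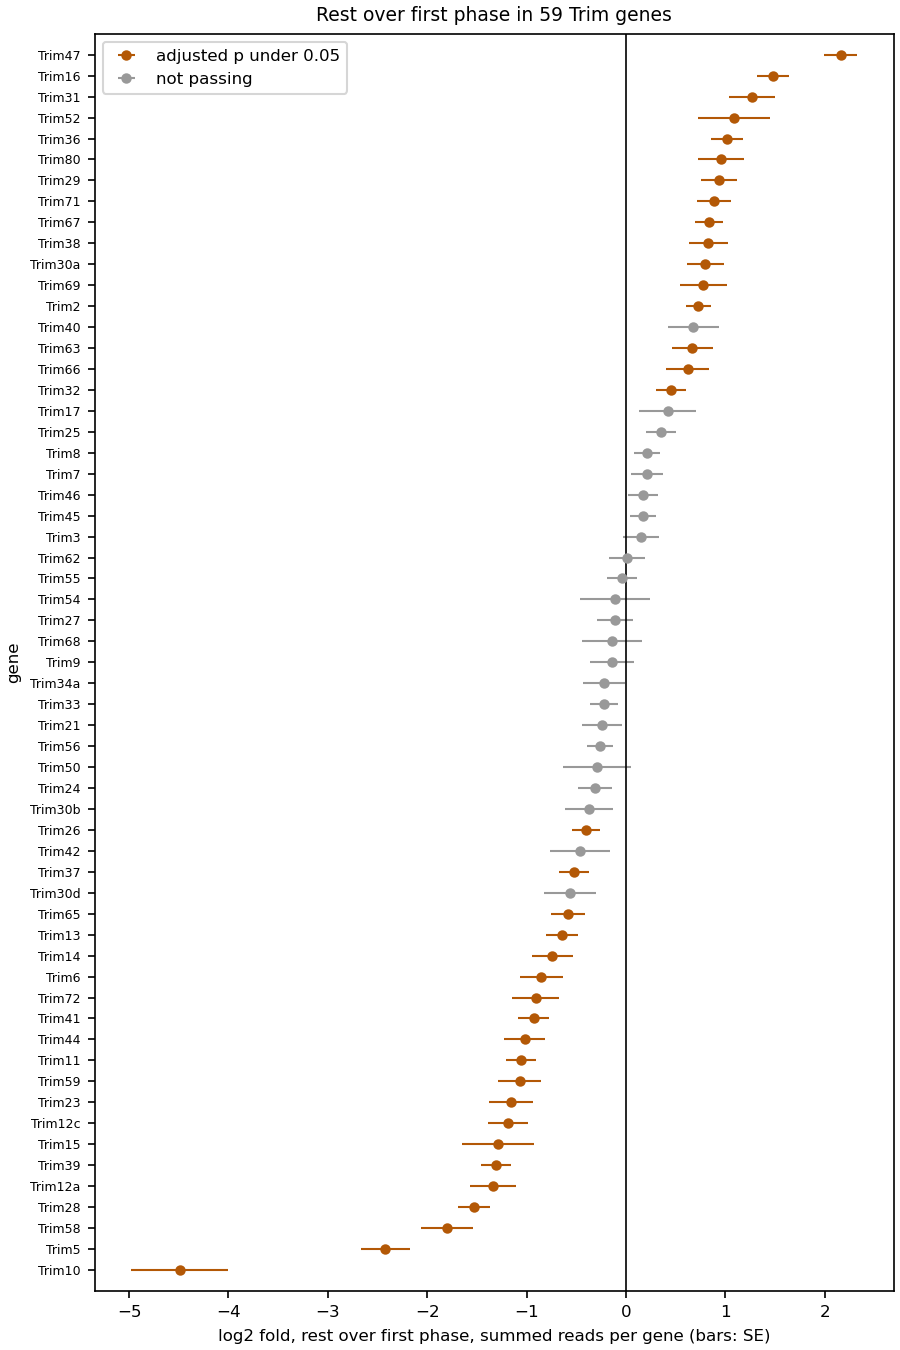
Log2 fold of the rest over the first phase for each of the 59 Trim genes by summed reads of all its peaks (x axis), with SE bars and genes ordered by fold on the y axis; brown points passed limma's test at an adjusted p under 0.05 and grey points did not. Trim47 is at the top with 2.16 and Trim10 at the bottom with -4.49.

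The deposited tables compare group A with group B within each phase. In the first phase, none of the 362 Trim peaks was called by limma (0.0% of all peaks), with 17 at an unadjusted p under 0.05, and none by the authors' deposited table. In the rest phase limma on quantile-scaled reads called 15 Trim peaks higher and 23 lower in A, against 6.48% and 5.56% of all peaks. The authors' deposited table calls 143 Trim peaks higher in A and none lower in the rest phase, against 39.7% and 0.0929% of all peaks. With total reads in peaks as the scaling, limma called 47 higher and 33 lower in A, against 13.1% and 8.29% of all peaks, and under the authors' scaling 199 higher, against 54.9%, and 2 lower. In the second phase limma called none (0.0% of all peaks), with 3 at an unadjusted p under 0.05. With 2 libraries a group, a count of 0 does not show that A and B were alike. The authors' deposited table calls 95 Trim peaks higher in A and none lower there, against 26.7% and 0.00429% of all peaks. Under the authors' scaling the median of all peaks lay at a log2 fold of 1.31 (rest phase) and 1.14 (second phase), against -0.02 and 0.01 under quantile scaling. The A libraries of the rest phase had 18602644 and 15990425 reads in peaks, against 5454821 and 8770052 in B, and the part of this difference in the calls was not tested.

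**Figure D4:**
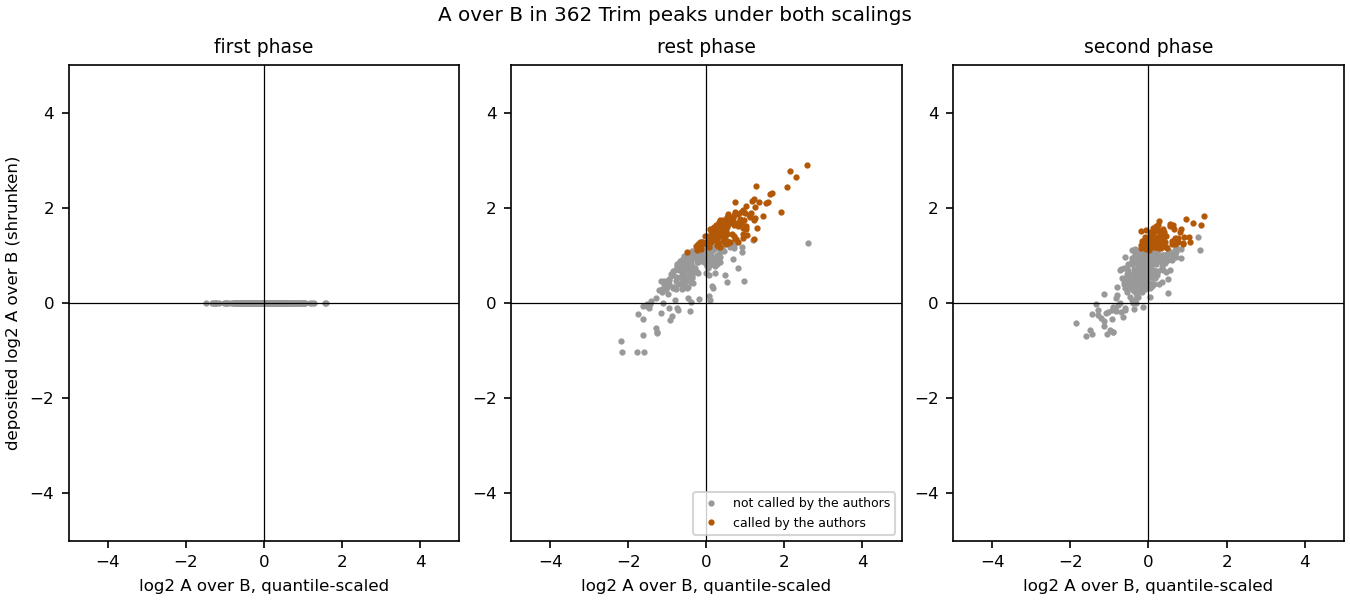
Log2 fold of A over B for the 362 Trim peaks in each phase, from quantile-scaled reads (x axis) and as the shrunken fold of the authors' deposited table (y axis), with the peaks called by the authors in brown. The rest- and second-phase clouds lie mostly above 0 on the y axis but around 0 on the x axis, and the deposited first-phase folds all lie close to 0.

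The rest-phase calls spread over both directions and were mostly away from starts, as were 296 of the 362 Trim peaks tested. With any 1 of the 4 rest-phase libraries left out, which leaves 2 against 1, limma called none of the Trim peaks and none of all 139557 peaks. The folds of all 38 called Trim peaks kept their direction in each of these 4 fits. The peaks were called on the same libraries, which makes this likely beforehand, so it adds no support to the calls. Trim52 had 3 of its 11 peaks higher in A. The furthest of them (chr14:106193178-106193577) had 6.20 and 6.76 in A, against 4.20 and 3.79 in B (log2 fold 2.58, SE 0.32, limma adjusted p = 0.0027). A distal Trim24 peak (chr6:37866899-37867298) had 5.85 and 6.33 in A, against 3.53 and 4.67 in B (log2 fold 2.07, SE 0.41, limma adjusted p = 0.0145). A Trim36 peak had 5.48 and 5.54 in A, against 3.53 and 4.30 in B. In all 3 peaks second-phase A1 and B1 lay near the levels of rest-phase A and second-phase A2 and B2 nearer those of B: the Trim52 peak had 6.72, 4.24, 6.62 and 4.70 in A1, A2, B1 and B2. An intron peak assigned to Trim30a was also higher in A, with 5.53 and 5.61, against 4.04 and 4.52 in B. So was the peak upstream of Trim30c (log2 fold 0.65, limma adjusted p = 0.045).

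Peaks lower in A were led by those of Trim2 and Trim27. A Trim2 intron peak (chr3:84241546-84241945) had 2.89 and 2.89 in A, against 5.51 and 4.36 in B (log2 fold -2.19, SE 0.49, limma adjusted p = 0.0219). Trim27, a nuclear RING protein, had 5 of its 12 peaks lower, and the distal one at chr13:21167421-21167820 had 5.63 and 6.33 in A, against 7.72 and 7.88 in B (log2 fold -1.74, SE 0.23). Single peaks of Trim33, Trim29, Trim24, Trim32 and Trim11 were also lower in A, with log2 folds between -1.63 and -1.17, that of Trim11 being 0.57 under the authors' scaling, where the median of all peaks was 1.31. Those of Trim9, Trim71, Trim59 and Trim33 among the higher ones had folds between 1.18 and 1.62. The chromatin cofactors together had 4 peaks higher and 10 lower of 52, against 6.48% and 5.56% of all peaks. In the antiviral group the only call was an intron peak of Trim25 (chr11:89006372-89006771), at 7.11 and 6.36 in A, against 8.23 and 7.71 in B (log2 fold -1.13, SE 0.24, limma adjusted p = 0.0187). Under the authors' scaling its log2 fold was 0.37, below the median of 1.31 over all peaks.

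Of 20 genes that signal with the family, 135 peaks were tested. In the rest over the first phase 24 rose and 37 fell, against 19.8% and 18.7% of all peaks, and 74 did not pass. None passed in the second over the rest phase, where 0.0% of all peaks did. Rigi, the RNA sensor that TRIM25 modifies, had a start peak that fell by 1.40 (SE 0.33), and that of Sting1, the adaptor of cytosolic DNA sensing, fell by 1.54 (SE 0.25). The start of the kinase gene Ikbke rose by 1.47 (SE 0.30). The family members without a Trim number (Pml, Mid1, Mefv, Bspry and Rnf207) had 7 of 43 peaks that rose and 5 that fell, beside the same shares, and 31 did not pass. Mid1, a microtubule-bound ubiquitin ligase, rose at its start, with 5.99, 6.04, 6.54 and 6.39 in the rest phase, against 3.82, 4.92, 4.09 and 2.64 in the first phase (limma adjusted p = 0.000186), while Mefv, which encodes pyrin, fell by 1.99 (SE 0.36) and Pml by 0.74 (SE 0.25). Outside the family, the start peaks most like that of Trim30a over the 12 libraries were those of Zc3hav1 (r = 0.961), Sppl2a (0.954), Mir7671 (0.953), Kcnab1 (0.95), Dhx58 (0.947), C1s1 (0.944), Ccdc186 (0.944) and Glipr1 (0.937). Zc3hav1 encodes the zinc finger antiviral protein ZAP, and its start had 9.08, 9.76, 8.75 and 9.89 in the second phase, against 9.12, 9.15, 9.28 and 9.30 in the rest phase. These libraries share depth and phase, and the likeness is given as a description.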

How the data were processed

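ATAC-seq was done on 12 libraries. Per the submitters' processing notes the build was mm10. They name, with no role given, HOMER 5.1, DiffBind 3.14.0, DESeq2, MACS2, Picard 3.2.0, Bowtie2 2.5.4, bedtools 2.28.0 and deepTools 3.2.1. The authors deposited 1 table per phase with the same 139999 peaks, each with the log2 mean of normalised reads of both groups, a shrunken log2 fold, a p-value and an adjusted p-value. The sign of the deposited fold is that of A minus B only for the rest phase, so the other 2 phases had theirs turned round to give A over B throughout.

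A deposited group mean averages 2 products of a whole read number and a library's scaling, and from this whole reads were solved for all 12 libraries in 139557 peaks. The other 442 peaks, with a listed 0, were left out. Reads were quantile-scaled over the libraries compared and tested as log2 (reads + 1) with limma 3.58.1 (R 4.3.3; empirical Bayes with trend, two-sided, no filter on low peaks), and p-values were Benjamini-Hochberg adjusted over all peaks or all genes. Folds on this scale understate changes of low peaks. Between phases groups A and B were pooled. The recovery and the fits were tested on simulated data. PCR reads carry no molecular identifiers, and total library sizes are not given.

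The peaks named are the one nearest the start within 1 kb, or else that with the smallest p, for a fixed list of genes, the largest called folds, and the highest and lowest promoters. Peaks of the cluster, Trim37, Trim47 and the first Trim24 peak of the second-phase account were added after their values were seen. Members, lists and tests were chosen with earlier results of these data known. Sequences are from RefSeq (GRCm38.p6), whose windows matched 53 of the 69 symbols. The alternatives were total reads in peaks, the authors' scaling, a pseudocount of 4, a mean of at least 10 reads, a fold of at least 2, promoter peaks only, and leaving out libraries.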

Additional observations from a re-analysis of the deposited data

Results flagged for a closer look

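Among 70 sets of 4 libraries (35 peaks in the rest and second phases), 4 had a library far from the others by Dixon's test, and chance flags about 1 in 20 such sets. The Trim5 start peak at 104287710 on chromosome 7 had its lowest rest-phase library, B1, at a log2 level of 3.36, with the others between 4.42 and 4.54. The Trim14 start peak at 46533928 had its highest rest-phase library, A1, at 5.68, with the others between 5.31 and 5.35. The Trim54 peak at 31121153 had its lowest second-phase library, A2, at 3.22, with the others between 4.50 and 4.56. The peak at 114592322, assigned to Trim71 and upstream of its RefSeq start, had its highest second-phase library, B1, at 7.51, with the others between 6.97 and 7.05. None of these 4 peaks passed the test of the second over the rest phase.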

How the results depend on the processing

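No paired analysis was possible because the deposited columns carry no replicate numbers. The authors' scaling was not run between phases, since each table was scaled on its own. For the second over the rest phase the count of Trim peaks passing was 0 under every planned setting, including each library left out, and 56 (33 higher, 23 lower) without both A1 and B1; for genes it was 0 and 11 (8 higher, 3 lower). For the rest over the first phase the count stayed within 1.5 times the 160 reported, from 135 without first-phase B1 to 169 without rest-phase B1, with 174 when the first-phase A pair counted as 2 samples, 137 at a fold of at least 2 and 132 without both first-phase A libraries. For A over B in the rest phase, 38 became 201 (199 higher, 2 lower) under the authors' scaling, 80 (47 higher, 33 lower) with total reads, 143 by the deposited adjusted p, and 0 to 0 with each library left out, as for all peaks. In the second phase, 0 became 95 by the deposited adjusted p. Under the authors' scaling the rest-phase A over B fold changed sign in 160 of the 362 Trim peaks, 17 of them among the 38 called, and among the peaks named for Trim6 (1.47), Trim55 (0.60), Trim13 (1.74), Trim11 (0.57) and Trim25 (0.37). The cause of these differences was not tested, apart from the shift of all peaks by 1.31 that the scaling makes. Depth limits peaks with few reads: the median peak held 9 to 56 reads per library.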
